A study of Homo sapiens with 16 samples.

Results

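The genes described here are 42 members of the WNT signalling system: 18 WNT ligands, 15 receptors (FZD1 to FZD10, LRP5, LRP6, ROR1, ROR2 and RYK), 7 secreted inhibitors (DKK1, DKK2, DKK3, SFRP1, SFRP2, SFRP4 and FRZB) and 2 genes of other kinds, AXIN2 and RSPO3. They were chosen by name and role, with earlier results of these data known, from 20033 protein-coding genes of the GENCODE annotation of hg38. AXIN2 acts inside the cell and RSPO3 enhances WNT signalling, so both were kept apart from the secreted inhibitors. The study treated LX-2 cells, a single established human hepatic stellate cell line with myofibroblastic features, for 24 h with OSMI-1 at 50 µM or with DMSO (control). The compound blocks OGT, the enzyme that attaches O-GlcNAc to proteins, and the treatment is called OGTi. Acetylation of histone H3 at lysine 27 (H3K27ac), a mark of active promoters and enhancers, was measured by ChIP-seq in 4 control and 4 OGTi cultures. Only the positions of regions that lost H3K27ac under OGTi (3507 regions) or gained it (3623 regions) were analysed, as listed by the authors at an adjusted p of 0.15. The lists give no signal, no fold change and no measurement for single cultures, so the size of a change and its spread between replicates are unknown, as is the read depth. Regions with unchanged H3K27ac were not used here. A gene without a listed region may therefore carry unchanged acetylation or none, and the identity of the cells cannot be checked against marker genes.

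WNT ligands are lipid-modified secreted proteins that bind Frizzled (FZD) receptors. Together with the co-receptors LRP5 and LRP6 they stabilise beta-catenin, which acts with TCF/LEF factors in the nucleus, whereas ROR1, ROR2 and RYK take part in signalling that does not need beta-catenin. Secreted Frizzled-related proteins (SFRPs, including FRZB) bind WNT ligands outside the cell, and Dickkopf proteins such as DKK1 bind LRP5 and LRP6. In the liver, WNT signals set the zonation of hepatocytes, and activated stellate cells are a known source of WNT5A.

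Lost regions lay within 100 kb of 10 of 18 ligands and at the start of a pair of Frizzled genes. The 10 ligands include 2 pairs that share a region, and 7 ligands remained when each region went only to its nearest protein-coding gene. Within 100 kb of the annotated 5′ end, inhibitors had gained regions about as often as protein-coding genes in general. A region covered the 5′ end of 4 genes: it was lost at WNT5A, FZD2 and FZD7 and gained at DKK1. A lost region lay within 2500 bp of the 5′ end of 7.14% of the 42 genes, against 1.96% of protein-coding genes. For gained regions the shares were 2.38% and 6.39%. Within 100 kb of the 5′ end, 10 of 18 ligands (55.6%), 5 of 15 receptors (33.3%) and 1 of 7 inhibitors (14.3%) had a lost region, compared with 20.4% of all protein-coding genes. Gained regions lay within the same distance of 2 ligands (11.1%), 3 receptors (20.0%) and 2 inhibitors (28.6%), compared with 29.5% of all protein-coding genes. These are counts of genes and no test of a difference between roles was made.

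**Figure D1:**
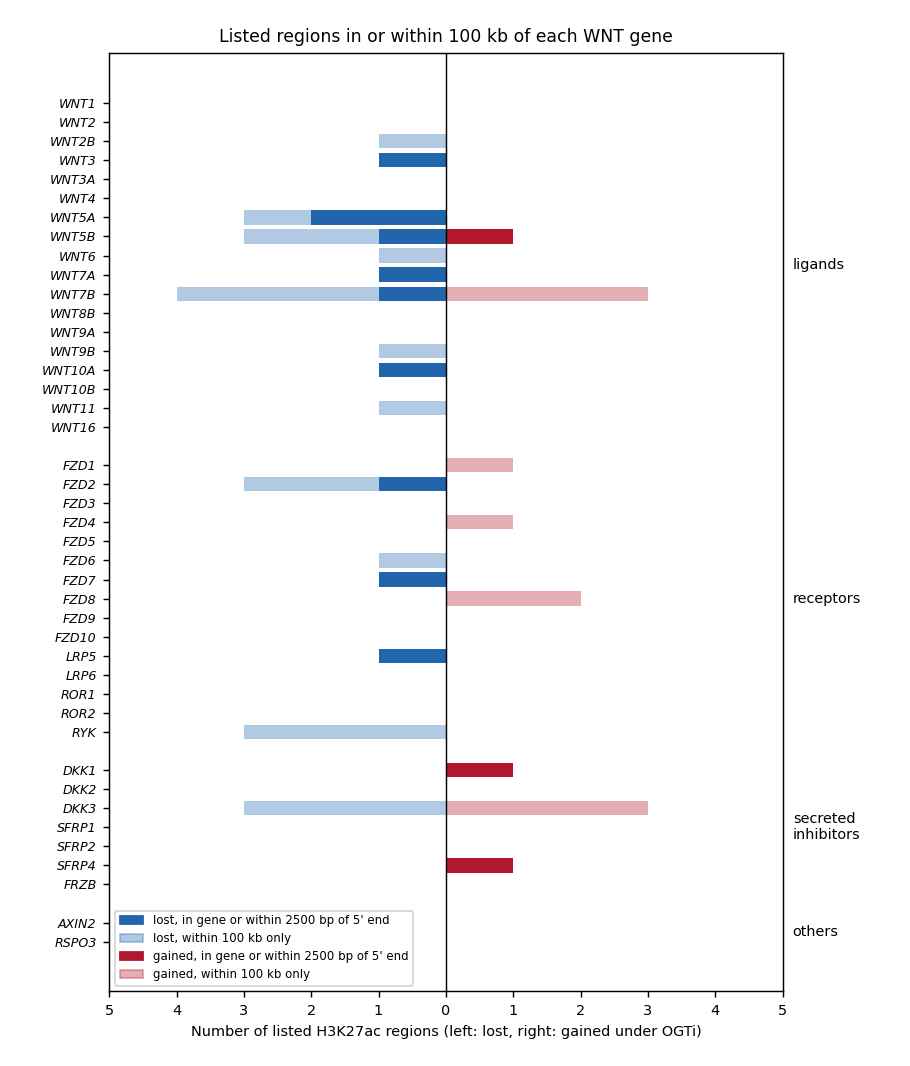
Number of listed H3K27ac regions in or near each of the 42 genes (bars to the left, lost under OGTi; bars to the right, gained), grouped by role. Dark bars count regions in the gene or within 2500 bp of its 5′ end and pale bars those within 100 kb only, and 21 genes have no bar.

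Sequences from the listed regions within 2500 bp of these 5′ ends are shown first because the clearest positions of loss and gain were there. They were searched on both strands for short letters that belong to known factors: CATTCC for TEAD, CTTTGA for TCF/LEF, TGTGGT for RUNX, TGANTCA for AP-1 and TGATGCAA for the composite ATF4 and C/EBP element. In all lines capitals mark matches, read in either direction. A match describes the letters and is not a measured binding site. RefSeq promoters (GRCh38.p14) were found for 29 of the 42 genes. The 250 bases before the RefSeq start lay wholly inside a listed region at a start of WNT5A (lost, chr3:55487307-55487556, minus strand) and at DKK1 (gained, chr10:52314031-52314280, plus strand), and are printed on the strand of the gene:
WNT5A, 250 bases before a RefSeq start, with a RUNX match in capitals: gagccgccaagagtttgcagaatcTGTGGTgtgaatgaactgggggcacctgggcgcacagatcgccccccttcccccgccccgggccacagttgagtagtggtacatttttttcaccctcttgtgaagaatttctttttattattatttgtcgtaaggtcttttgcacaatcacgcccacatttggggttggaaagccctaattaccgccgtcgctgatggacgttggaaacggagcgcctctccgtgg
DKK1, 250 bases before the RefSeq start, with 2 TCF/LEF matches and then 1 TEAD match in capitals: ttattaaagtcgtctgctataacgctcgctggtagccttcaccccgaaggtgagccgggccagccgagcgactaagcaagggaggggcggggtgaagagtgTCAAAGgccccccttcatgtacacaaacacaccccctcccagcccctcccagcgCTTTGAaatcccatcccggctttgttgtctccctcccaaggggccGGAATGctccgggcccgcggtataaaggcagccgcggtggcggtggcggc

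The DKK1 stretch held TCF/LEF letters in a position where 11.2% of the 35116 RefSeq promoters of this length hold them, and TEAD letters, which 11.9% hold. RUNX letters, as in the WNT5A stretch, occur in 11.0%. FZD2 and FZD7 are not among the 29 genes. For these, and the other lost WNT5A region, the stretch of up to 150 bases with the most TEAD and TCF/LEF matches is shown. It is printed with 10 flanking bases, from hg38 and on the strand of the gene. All matches shown lay upstream of the annotated 5′ end, by 1402 to 1505 bp at WNT5A. They were at -2036 and -1966 bp for FZD2 and at -401 and -363 bp for FZD7:
WNT5A, lost region over the 5′ end, chr3:55491931-55492059, minus strand, 3 TCF/LEF matches in capitals: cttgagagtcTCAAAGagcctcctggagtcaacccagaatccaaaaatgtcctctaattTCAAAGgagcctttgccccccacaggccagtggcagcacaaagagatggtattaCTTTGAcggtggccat
FZD2, lost region over the 5′ end, chr17:44555438-44555533, plus strand, 1 TCF/LEF match and then 1 TEAD match in capitals: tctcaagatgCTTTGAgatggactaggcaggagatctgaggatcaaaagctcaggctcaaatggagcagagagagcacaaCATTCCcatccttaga
FZD7, lost region over the 5′ end, chr2:202033444-202033507, plus strand, 1 TEAD match and then 1 TCF/LEF match in capitals: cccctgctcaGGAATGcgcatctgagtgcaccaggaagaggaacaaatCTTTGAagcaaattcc

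**Figure D2:**
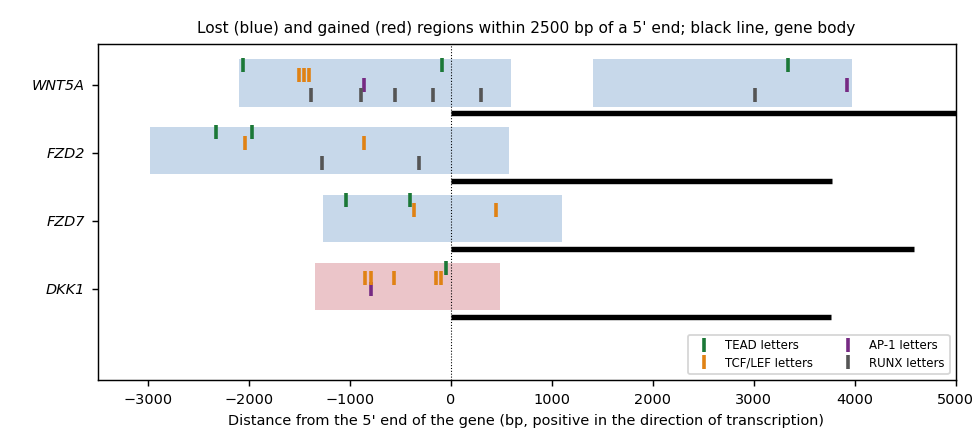
Regions within 2500 bp of a 5′ end (blue, lost; red, gained) at WNT5A, FZD2, FZD7 and DKK1, against the distance from the 5′ end in bp, with the gene body as a black line and motif letters as ticks. WNT5A has 2 lost regions, FZD2 and FZD7 have 1 each, and the single region of DKK1 is gained and carries 5 TCF/LEF ticks.

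Among the ligands, WNT5A had the closest loss of H3K27ac to its start, with 2 regions within 2500 bp of the 5′ end. WNT5A signals mainly without beta-catenin, through ROR2 and Frizzled receptors. The gene (ENSG00000114251.15) lies on the minus strand at chr3:55465715-55490539. A lost region of 2701 bp (chr3:55489941-55492641) covered its 5′ end. Another of 2564 bp (chr3:55486567-55489130) began 1409 bp inside the gene and covered the start of the canonical transcript, which lies 3.23 kb downstream of the 5′ end of the annotated gene. The other lost region, of only 380 bp, lay 34.5 kb upstream, inside ERC2, a gene for a presynaptic scaffold protein. All 3 WNT5A regions were lost, and the nearest gained region was 733 kb away. The region around the inner start had a GC content of 60.6% and a CpG observed/expected ratio of 0.795, against 46.5% and 0.206 in the region over the 5′ end, so the latter was poor in CpG dinucleotides.

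WNT5B, the closest relative of WNT5A, had lost and gained regions side by side. A lost region (chr12:1605329-1606737) and a gained region (chr12:1607957-1609228) lay 76.1 and 78.7 kb downstream of its 5′ end. Both are inside the annotated gene of 117 kb, but upstream of its canonical transcript, which starts 99.3 kb downstream of the annotated 5′ end. With only the annotated 5′ end of each gene counted, the closest to both was that of FBXL14, a gene for an F-box protein, at 11.5 and 14.0 kb. However, a RefSeq promoter of WNT5B ends at chr12:1617055, and the start that follows it lay nearer to both regions than FBXL14. A further 2 lost regions lay 56.6 and 71.8 kb upstream of the annotated 5′ end, in ERC1. Within 100 kb of that end WNT5B had 3 lost and 1 gained region, but 1 lost and 2 gained from the canonical start.

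WNT7B, which acts through beta-catenin in lung and brain vascular development, had the largest number of listed regions of the 42 genes. A lost region (chr22:45925068-45927216) was in intron 3, 51.0 kb from the 5′ end, and 3 others lay 19.9, 25.9 and 30.6 kb upstream. By contrast, 3 gained regions lay farther upstream, at 93.7, 97.7 and 99.7 kb. The gained regions were closer to the 5′ end of PPARA, the fatty acid-sensing nuclear receptor gene (73.6 to 79.6 kb), than to that of WNT7B. WNT7A, its paralogue, had a single lost region in intron 3 (chr3:13849982-13851628), 29.3 kb from the 5′ end. It held 3 TEAD, 2 AP-1, 1 TCF/LEF and 1 RUNX match.

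The other ligands had 1 lost region each at most. WNT3 and WNT9B, neighbours on chromosome 17 that both act in embryonic patterning, shared one region (chr17:46764127-46766122). It was in intron 4 of WNT3, 68.0 kb from the 5′ end of WNT3 and 68.1 kb from that of WNT9B. WNT6 and WNT10A, neighbours on chromosome 2, also shared a lost region (chr2:218896363-218897706), 16.2 kb into the annotated WNT10A gene but past the end of its canonical transcript, and 37.2 kb from the 5′ end of WNT6. Thus the 10 ligands with a lost region include 2 pairs that count the same region. WNT11, which directs cell movements without beta-catenin, had a lost region of 654 bp just past its end, 25.8 kb from the 5′ end. The lost region near WNT2B lay 62.2 kb upstream, inside CTTNBP2NL and only 8.14 kb from the 5′ end of that gene. Its distance exceeded 100 kb when counted from the canonical transcript of WNT2B, which starts 42.4 kb downstream.

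No listed region lay within 100 kb of the 5′ end of WNT1, WNT2, WNT3A, WNT4, WNT8B, WNT9A, WNT10B or WNT16. In this group the nearest region was gained at 115 kb for WNT8B, 119 kb for WNT10B, 126 kb for WNT1 and 240 kb for WNT16, and lost at 144 kb for WNT4 and 324 kb for WNT2. For WNT3A and WNT9A, neighbours on chromosome 1, the nearest region was gained and lay 832 and 773 kb away.

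**Figure D3:**
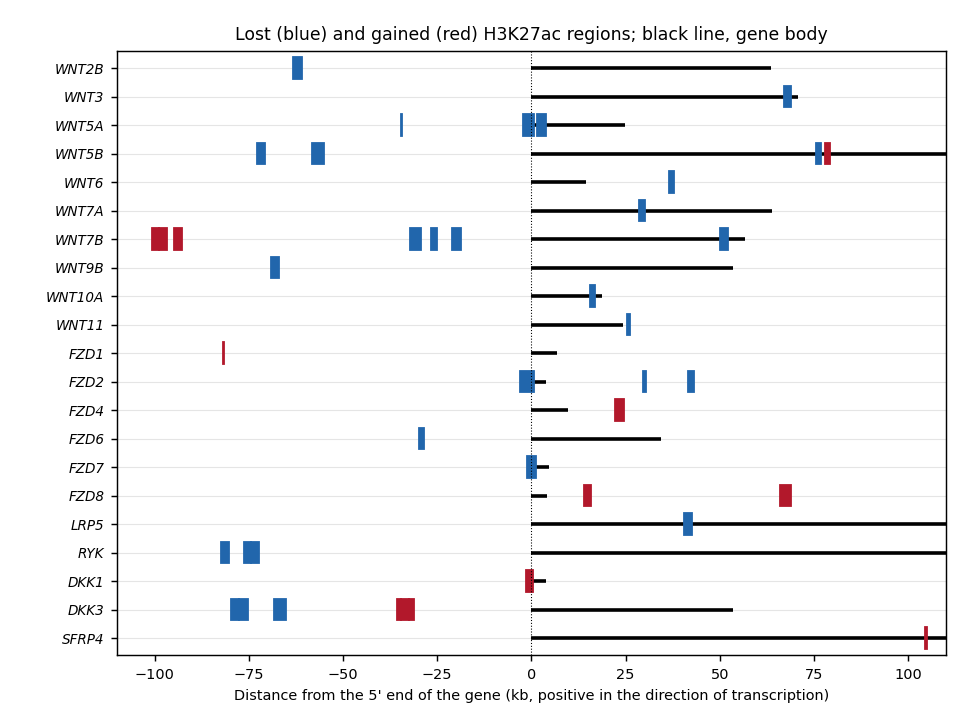
Position of each lost (blue) and gained (red) region relative to the 5′ end of the 21 genes that have one, in kb along the direction of transcription, with the gene body as a black line. Regions are drawn to scale, and those shared by WNT3 and WNT9B or by WNT6 and WNT10A appear in both rows.

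Among the receptors, loss was seen at the start of FZD2 and FZD7. Both encode Frizzled receptors of one subfamily with FZD1, and each lost region reached from upstream sequence into the gene, which in FZD2 spans 3.78 kb and in FZD7 4.59 kb. At FZD2 (ENSG00000180340.7, plus strand, chr17:44557484-44561262), a lost region of 3555 bp (chr17:44554504-44558058) covered the 5′ end, and 2 others lay 30.0 and 42.5 kb downstream, outside any protein-coding gene. At FZD7 (ENSG00000155760.3, plus strand, chr2:202033855-202038441), the only listed region within 100 kb was the lost one over the 5′ end (chr2:202032590-202034957, 2368 bp), with its centre 0.0820 kb from it. This region was rich in CpG (GC content 67.9%, CpG ratio 0.938), more so than that of FZD2 (52.6% and 0.565). FZD1 instead had a single gained region of 200 bp, 81.6 kb upstream and inside CDK14, a cyclin-dependent kinase gene.

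The remaining Frizzled genes had distant regions or none. FZD8 had 2 gained regions, 14.9 and 67.5 kb downstream of its 5′ end. FZD4, the receptor for Norrin in retinal vessels, had 1 gained region 23.4 kb downstream, inside the serine protease gene PRSS23. FZD6, which acts in planar cell polarity, had 1 lost region 29.2 kb upstream. For FZD3, FZD5, FZD9 and FZD10 no region was listed within 100 kb. The nearest one was gained at 395 kb for FZD3, 211 kb for FZD5 and 604 kb for FZD10, and lost at 1047 kb for FZD9. Among the 6 Frizzled genes with a region, 3 therefore had only lost and 3 only gained regions.

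Among the co-receptors, LRP5, which also governs bone mass, had a lost region in intron 2 (chr11:68352979-68355233), 41.5 kb from the 5′ end, with 1 TEAD, 1 AP-1 and 2 RUNX matches. Its homologue LRP6 had none, and its nearest listed region was lost at 381 kb. Upstream of RYK, 3 lost regions lay at 73.4, 75.3 and 81.3 kb, the first of them abutting the next, but all were closer to the 5′ end of AMOTL2 (43.3 to 51.3 kb), whose product, an angiomotin, binds YAP1. ROR1 and ROR2, which bind WNT5A, had no listed region in their bodies, although both genes are long (407 and 387 kb). The region nearest to the 5′ end was lost at 1535 kb for ROR1 and gained at 343 kb for ROR2.

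The inhibitors had gained regions at 3 genes. DKK1 (ENSG00000107984.10, plus strand, chr10:52314281-52318042), a LRP5 and LRP6 antagonist, had a gained region of 1832 bp over its 5′ end (chr10:52312938-52314769) with 5 TCF/LEF matches, 1 of which overlapped an AP-1 match. The nearest lost region was 2712 kb away. Of all gained regions, 45.0% held TCF/LEF letters in their central 1000 bp, and the number of matches per region was not compared with them. At SFRP4, the gained region (chr7:37920669-37921260) was inside the annotated gene of 120 kb but upstream of its canonical transcript of 10.9 kb. It was 105 kb from the annotated 5′ end, hence outside the 100 kb window. The canonical transcript starts 109 kb downstream of that end, and from its start the region lay within 100 kb. The RefSeq promoter of SFRP4 (chr7:37916818-37917067) was close to the region. The centre of this gained region was only 0.324 kb from the 5′ end of EPDR1, the gene of an ependymin-related protein, in which it also lay.

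DKK3, a divergent Dickkopf protein, was flanked by both kinds of region on its upstream side. A block of 3 abutting gained regions lay 31.8 to 35.2 kb upstream (chr11:12040830-12045534), and 3 lost regions followed at 66.8, 76.5 and 78.7 kb. The gained block had DKK3 as its nearest protein-coding gene, whereas the lost regions were nearest to MICAL2, an actin-oxidising enzyme gene, at 17.5, 7.72 and 5.50 kb. DKK2, SFRP1, SFRP2 and FRZB had no region within 100 kb. The nearest region was gained at 107 kb for SFRP1, 171 kb for FRZB and 540 kb for DKK2, and lost at 539 kb for SFRP2. AXIN2, a direct target of beta-catenin that limits the pathway, and RSPO3, which stabilises Frizzled receptors, had none within 100 kb either, with nearest regions at 376 kb (lost) and 148 kb (gained).

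The counts were then set beside those of all protein-coding genes. A lost region lay within 2500 bp of the 5′ end of 3 of the 42 genes (7.14%) and of 1.96% of protein-coding genes, and a gained region in 1 (2.38%) and 6.39%. When the gene body was added, lost regions were held by 9 genes (21.4%, against 6.91%): 6 ligands, 3 receptors and no inhibitor. Gained regions were held by 3 genes (7.14%, against 11.3%), namely WNT5B, DKK1 and SFRP4. Of the 10 genes holding regions of one kind, 8 (80.0%) held lost regions, whereas this was 36.4% for protein-coding genes. Within 100 kb, 16 genes (38.1%) had a lost and 7 (16.7%) a gained region, 3 of them both. Of the 17 with one kind, 13 (76.5%) had lost regions, compared with 37.6% of protein-coding genes. The median gene length was 33.2 kb for the 42 genes and 27.5 kb for all protein-coding genes, and its part in the gene-body counts was not tested.

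**Figure D4:**
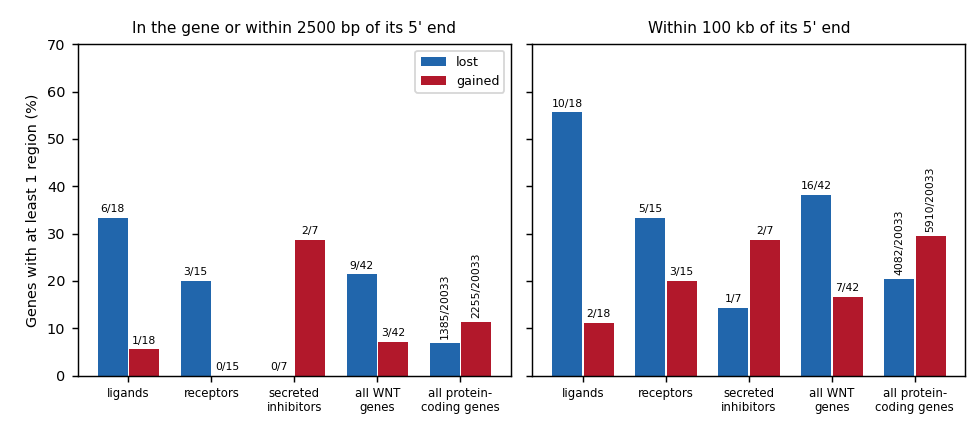
Percentage of genes with at least 1 lost (blue) or gained (red) region, by role and for all protein-coding genes, in the gene or within 2500 bp of its 5′ end (left) and within 100 kb (right). Numbers above the bars give genes with a region over genes counted, with lost above gained for ligands and receptors and the reverse for inhibitors and for all protein-coding genes.

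Lost regions were most frequent near ligands, then receptors, then inhibitors at each window from 25 to 500 kb. At 2.5 and 10 kb the receptors came first, through FZD2 and FZD7. The share of ligands with a lost region was 33.3% at 50 kb, 55.6% at 100 kb and 72.2% at 200 kb, against 11.6%, 20.4% and 34.3% of protein-coding genes. For receptors it was 26.7%, 33.3% and 40.0%. Inhibitors had none at 50 kb and DKK3 alone at 100 and 200 kb. For gained regions, ligands went from none at 50 kb to 11.1% at 100 kb and 27.8% at 200 kb, below the 18.7%, 29.5% and 45.6% of protein-coding genes. Inhibitors had 28.6% at 50 and 100 kb and 71.4% at 200 kb, where 5 of 7 genes were counted. At 500 kb, 77.8% of ligands had a lost and 72.2% a gained region, and the protein-coding background was 59.5% and 69.9%.

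**Figure D5:**
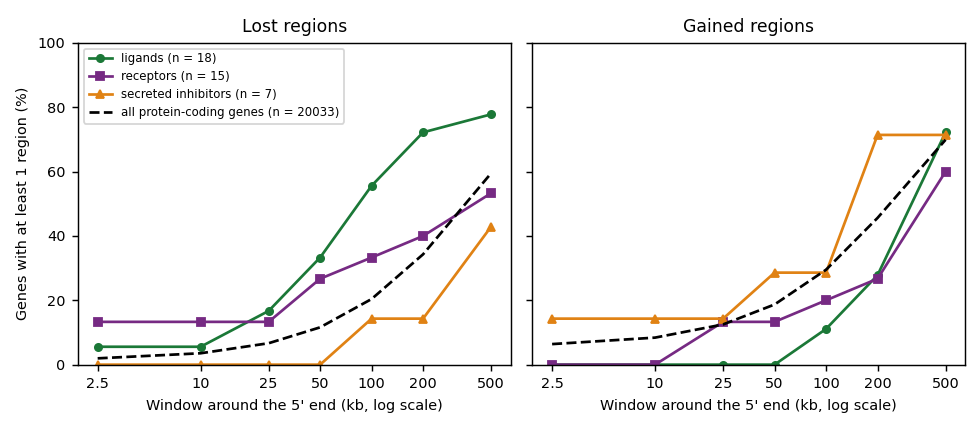
Percentage of genes with at least 1 lost (left) or gained (right) region against the window around the 5′ end in kb (log scale), for ligands, receptors, inhibitors and all protein-coding genes (dashed). For lost regions the ligands run above the dashed line at each window and the inhibitors below it, and for gained regions the ligands run below it up to 200 kb.

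By distance to the nearest lost region the roles kept their order, but receptors lay farther from one than protein-coding genes in general. For gained regions inhibitors were again nearest, but receptors rather than ligands were farthest. The median distance from a ligand to the nearest lost region was 67.1 kb and to the nearest gained region 265 kb, whereas for inhibitors the medians were 539 and 107 kb. Receptors had medians of 463 and 429 kb, and all protein-coding genes 360 and 235 kb. The nearest region was lost for 12 of 18 ligands, 8 of 15 receptors and 1 of 7 inhibitors (40.2% for protein-coding genes). The 12 ligands include WNT3 with WNT9B and WNT6 with WNT10A, pairs that share a region. The ligand median for lost regions also rests on the region shared by WNT3 and WNT9B. These distances run to the nearest edge of a region, whereas those given for single regions in or within 100 kb of a gene run to the centre. By the edge, the 3 gained regions of WNT7B, at 92743, 96743 and 98743 bp, lay just inside the 100 kb limit. The gained regions nearest to the annotated 5′ ends of SFRP4 (104 kb) and SFRP1 (107 kb) lay just outside it.

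The regions themselves were then examined. In all, 27 lost and 13 gained regions lay in or within 100 kb of the 42 genes, and 24 and 10 remained when regions of one kind within 1000 bp were merged. Their median width was 2000 bp (lost) and 1832 bp (gained), compared with 1905 and 1697 bp in the full lists. Of the 27 lost regions, 7 had their centre in one of the 42 genes, 4 in another protein-coding gene and 16 (59.3%) in none, against 47.0% of all lost regions. Of the 13 gained regions, 9 (69.2%) had their centre in no protein-coding gene, against 31.3% of all gained regions. Counting the annotated 5′ end of each protein-coding gene, the nearest belonged to one of the 42 genes for 19 lost regions. The same held for 7 of the 12 gained ones within 100 kb. The centre lay within 2500 bp of a protein-coding 5′ end for 3 lost regions (11.1%, against 9.81% in the full list) and 2 gained ones (15.4%, against 29.1%).

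Motif letters were counted in the central 1000 bp of each region. TEAD letters occurred in 18 of the 27 lost regions (66.7%, against 60.5% in the full list) and in 5 of the 13 gained regions (38.5%, against 45.8%). For TCF/LEF letters the counts were 11 (40.7%, against 48.2%) and 5 (38.5%, against 45.0%). RUNX letters were in 63.0% and 53.8%, AP-1 letters in 44.4% and 46.2%, and the ATF4 and C/EBP letters in none of either kind. In the full lists these shares were 51.3% and 46.9% for RUNX, 44.7% and 46.7% for AP-1, and 2.20% and 8.17% for ATF4 and C/EBP. The median CpG observed/expected ratio was 0.241 in lost and 0.249 in gained regions, against 0.202 and 0.247 in the full lists.

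Other genes of the pathway were examined from 4 lists (some genes are in more than 1 list). Among all protein-coding genes, 6.91% held a lost and 11.3% a gained region. Of 27 genes for WNT secretion and extracellular control, 2 held a lost region (NOTUM, which removes the lipid of WNT ligands, and MUSK) and 3 a gained one (LGR4, a receptor for R-spondins, GPC6 and MUSK), or 7.41% and 11.1%. Of 30 intracellular genes of the beta-catenin branch, TCF7L1 (3 regions) and CSNK1D held lost regions, and DVL1, DVL2, TCF7L2 and TNKS held gained regions (6.67% and 13.3%). Both lists were thus near the background. DVL1 and DVL2 encode Dishevelled proteins, which relay the signal from Frizzled receptors, and TCF7L1 and TCF7L2 encode partners of beta-catenin.

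Both kinds of region were found in the branches that do not need beta-catenin. Of 25 such genes, 8 (32.0%, against 6.91%) held lost regions, among them DAAM2 and PRICKLE2 (3 each), which act in planar polarity, PRKCA (3), DAAM1, NFATC4 and PLCB4 (2 each). Gained regions were held by 6 (24.0%, against 11.3%): CAMK2D (4), PRKCA (3), RAC1 (2), CAMK2G, DAAM1 and ROCK2. PRKCA and DAAM1 thus held both kinds. Within 100 kb of the 5′ end the shares were nearer to the background, with 28.0% against 20.4% for lost and 36.0% against 29.5% for gained regions. Several of these genes are long (353 kb for PRICKLE2, 508 kb for PRKCA), and the part of gene length in these counts was not tested.

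Of 16 well-known targets of WNT signalling, 4 held a gained and 1 a lost region. Among all protein-coding genes, 11.3% held a gained region. The share holding a lost region (6.25%) was near the 6.91% of protein-coding genes. CD44 (4 regions), MYC (3), CCND1 and FOSL1 (2 each) held gained regions, and all 4 had one within 2500 bp of the 5′ end, where 6.39% of protein-coding genes have one. NOTUM held the lost region, and none of the 16 had one within 2500 bp of the 5′ end (background 1.96%). Within 100 kb, 7 targets (43.8%, against 29.5%) had a gained and 5 (31.2%, against 20.4%) a lost region. These genes also respond to many other signals.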

How the data were processed

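H3K27ac ChIP-seq was performed by the authors in LX-2 cells (4 control and 4 OGTi replicates). The other 8 of the 16 libraries (input DNA and column purified chromatin) were not analysed here. According to the methods, the authors mapped reads to hg38 with Chromap, called peaks per replicate against input with MACS2 (2.1.1.20160309), removed duplicates and blacklisted reads, and compared all 8 libraries in bins with MAnorm2. The 2 deposited lists hold 3 columns (chromosome, start, end) and no signal. The adjusted p in their names is 0.15, and the methods text gives a stricter one. Abutting bins of one domain are listed separately.

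Starts were converted to count from 1. Genes were taken from GENCODE release 44 (the study used release 34), and sequences from hg38 and from the RefSeq promoter table, whose 32 entries for these genes matched hg38. A gene held a region when any base lay in its body or within 2500 bp of its 5′ end. Scripts ran in Python 3.11.15 and the overlap function was checked on planted regions. Results are counts and shares beside those of all protein-coding genes, with no test. All 42 genes are accounted for: genes holding a region are described with each region, and the others by distance. The genes and the pathway lists were chosen with earlier results of these data known. Alternatives were other windows, all transcript starts, region centres, the nearest gene, merged regions and, chosen after seeing the data, the canonical transcript. Sequence windows were also chosen after the data were seen.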

Additional observations from a re-analysis of the deposited data

How the results depend on the processing

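No paired analysis was possible because neither list carries a measurement for single replicates. Leaving out replicates or applying a stricter threshold could not be run for the same reason, and the effect of read depth was not examined. Of 66 counts under an alternative, 48 stayed within 1.5 times the reported one. Narrowing the window to 50 kb left lost regions near 10 of the 42 genes (16 regions, 6 ligands and 0 inhibitors) and gained regions near 4 (6 regions, 0 ligands). These shares of the 42 genes were 23.8% (lost) and 9.52% (gained), against 11.6% and 18.7% of protein-coding genes. Widening it to 200 kb gave 41 lost and 29 gained regions, with gained regions near 15 genes, among them 5 ligands and 5 inhibitors. The 15 genes were 35.7% of the 42, against 45.6% of protein-coding genes. With each region given only to its nearest protein-coding gene, 7 gained regions remained, and 0 ligands had a gained and 0 inhibitors a lost region. Under this rule 11 genes had a lost region rather than 16, and 7 of the 18 ligands rather than 10. The 2500 bp window alone left 3 genes with a lost and 1 with a gained region. With the canonical transcript as the gene, 1 gene (DKK1) held a gained region, since WNT5B and SFRP4 no longer did, and 7 held lost regions. Counting by region centre, by all transcript starts or with windows of 1000 or 5000 bp moved no count past 1.5 times. With all transcript starts, however, 3 inhibitors rather than 2 had a gained region within 100 kb. No share of all protein-coding genes is given under the nearest-gene, canonical-transcript, all-transcript and region-centre rules. Whether the contrast with the background holds under them is therefore unknown.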
